A study of Mus musculus with 12 samples.

Results

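The 10 genes Gfap, Aldoc, Clu, Mlc1, Fabp7, Gja1, Sox9, Aqp4, Slc1a2 and Slc1a3, all widely used as marker transcripts of astrocytes, were followed across 12 RNA-seq libraries of cultured mouse microglia. They were taken by symbol from the unfiltered expression table, in which all 10 were found among 46262 genes, and the transcript values of each gene were summed. The cultures were primary microglia of wild-type mice, taken from mixed glial cultures of either forebrain or cerebellum. They received a ligand for 24 hours, which was CSF-1 at 20 ng/ml in one arm and IL-34 at 100 ng/ml in the other. Both cytokines are ligands of the receptor encoded by Csf1r. Each of the 4 combinations of region and ligand had 3 libraries, from mixed glial cultures that the design text describes as independent. No cultures without a ligand were included, the ligand doses differed, and the age of the animals was not given. Expression is in TPM, which divides by transcript length and gives a share of the library. The share of short transcripts differed between libraries, as given below, so levels of short and long genes are compared with caution. On GRCm38, Gfap (chr11:102887336-102900912), Aldoc (chr11:78322968-78327781) and Sox9 (chr11:112782224-112787760) lie on chromosome 11, Fabp7 (chr10:57784881-57788450) and Gja1 (chr10:56377330-56402513) on chromosome 10, and Mlc1 (chr15:88955884-88979007) and Slc1a3 (chr15:8634124-8710764) on chromosome 15. Clu is at chr14:65968483-65981547 and Slc1a2 at chr2:102658659-102790784, and all 10 are protein-coding genes.

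Astrocytes take up transmitter, buffer ions and water, and feed neurons, and they make up much of the layer on which microglia grow in mixed glial cultures. Gfap is an intermediate filament of astrocytes, Aldoc an aldolase of glycolysis, Fabp7 a lipid carrier of radial glia and immature astrocytes, and Clu a secreted chaperone. Mlc1, Gja1 and Aqp4 encode proteins of the astrocyte surface, Sox9 is a transcription factor of the glial lineage, and Slc1a2 and Slc1a3 are the transporters that clear glutamate from the synapse.

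Microglial transcripts were abundant in all libraries: 20 microglial genes summed to 13708 to 14948 TPM in the forebrain libraries and 13513 to 16389 TPM in the cerebellar ones, and Csf1r alone stood at 1222 ± 67.9 TPM in forebrain against 1244 ± 71.6 in cerebellum (mean ± SD, n = 6 per region, as for all regional means below). The 10 astrocyte markers summed to 54.8 to 62.7 TPM in the forebrain libraries and 22 to 28.7 TPM in the cerebellar ones, with no overlap. In bulk RNA of this kind, fewer astrocytes among the cells and less of these transcripts per cell cannot be told apart. The labels' protocol describes a density gradient (Percoll) and magnetic selection for CD11b, a myeloid surface protein that astrocytes lack, but it speaks of human tissue, and whether these mouse cultures went through either step is not stated. The share of TPM in transcripts under 600 nt was 2.58, 3.31 and 0.947% in the cerebellar IL-34 group, compared with 0.0269 to 0.555% elsewhere. The length below which 1 percent of a library's transcripts at 5 TPM or more fell, called its length floor, was 503, 491 and 580 nt in those 3 libraries and at least 592 nt in the rest. That group therefore stands apart in transcript length, and where the design allows, results that rest on it are given with and without it.

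The bases upstream of 4 of these genes are shown because the data place the genes at different ends of the regional comparison: Fabp7 with the largest fitted difference, Gfap and Gja1 in the middle, and Slc1a3 with none that passed. Sequences are from RefSeq on GRCm38.p6, where 6 of the 10 genes had usable entries, and each runs 5′ to 3′ on the gene's own strand and ends at the base before the first annotated exon or start site. Capitals mark matches, on either strand, to 7 short motifs. These were the TATA box (TATAAA), the core of the CCAAT box (CCAAT), the half-site of NFI factors (TTGGCA), the full NFI palindrome, the STAT motif (TTCNNNGAA), a SOX motif (ACAAAG) and the AP-1 motif (TGANTCA). The stretches are chr10:57784673-57784880 on the plus strand for Fabp7 (208 bases), chr11:102897201-102897450 on the minus strand for Gfap, chr10:56377050-56377299 on the plus strand for Gja1 and chr15:8710808-8711057 on the minus strand for Slc1a3 (250 bases each).
Fabp7: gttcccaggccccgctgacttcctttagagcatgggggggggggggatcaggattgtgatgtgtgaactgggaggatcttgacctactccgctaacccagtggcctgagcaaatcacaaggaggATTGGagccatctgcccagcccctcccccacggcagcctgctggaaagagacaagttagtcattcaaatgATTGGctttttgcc
Gfap: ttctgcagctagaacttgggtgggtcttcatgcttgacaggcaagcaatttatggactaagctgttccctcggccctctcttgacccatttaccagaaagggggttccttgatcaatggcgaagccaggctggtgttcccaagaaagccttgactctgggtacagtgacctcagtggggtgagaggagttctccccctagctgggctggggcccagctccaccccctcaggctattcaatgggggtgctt
Gja1: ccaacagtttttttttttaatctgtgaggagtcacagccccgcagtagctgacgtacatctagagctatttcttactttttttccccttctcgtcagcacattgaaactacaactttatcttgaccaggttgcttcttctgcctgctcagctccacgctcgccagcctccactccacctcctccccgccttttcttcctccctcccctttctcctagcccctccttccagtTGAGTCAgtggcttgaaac
Slc1a3: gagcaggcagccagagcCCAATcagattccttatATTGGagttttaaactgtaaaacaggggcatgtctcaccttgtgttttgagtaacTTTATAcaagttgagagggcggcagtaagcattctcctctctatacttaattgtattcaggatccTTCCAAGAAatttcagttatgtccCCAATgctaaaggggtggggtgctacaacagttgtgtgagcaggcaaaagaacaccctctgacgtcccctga

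In the Fabp7 stretch the capitals are CCAAT boxes read on the opposite strand, and in the Gja1 stretch they are the AP-1 motif just upstream of the start site. The Slc1a3 stretch held CCAAT boxes on both strands, a TATA box on the opposite strand at 161 to 156 bases before the start and the STAT motif TTCCAAGAA at 96 to 88 bases before it. None of these matches overlapped another. None of the 7 motifs occurred in the Gfap stretch, which says only that those letters are not in this window. Among 32851 RefSeq promoter windows of 250 bases, 33.8% held a CCAAT box, 12.4% TATAAA, 6.75% the AP-1 motif and 7.02% the STAT motif. The shares were 12.3% for the NFI half-site, 0.0365% for the NFI palindrome and 16.5% for the SOX motif. No motif occurred in more than 1 of the stretches of Fabp7, Gfap and Gja1, and no binding was measured in these cultures.

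Of the 10 markers, 9 passed the filter for testing (at least 1 TPM in at least 3 libraries) and Slc1a2 did not. For the mean of both ligands, 8 of the 9 were lower in the cerebellar than in the forebrain libraries, where 10.6% of the 12419 genes tested were lower, and 0 were higher. The exception was Slc1a3. For 7 of the 9, all 6 cerebellar libraries were below all 6 forebrain ones, as they were for 4.18% of the genes tested. The mean level in forebrain libraries was 1.72 (Aqp4) to 2.93 (Fabp7) times that in cerebellar ones among the 8. The median difference of the 9 tested markers on the log2(TPM + 1) scale was -0.78, beside 0.01 for all genes tested. Mlc1 and Sox9 had fewer than 3 cerebellar libraries at 1 TPM, so both entered the test through their forebrain level. Both are counted in the 8 and in the 7, and their calls are not separate evidence of a regional difference. The markers were chosen with earlier results of these data known, so the shares over all genes stand beside these counts as a description. All regional values below are cerebellum minus forebrain on this scale, on which changes of weakly expressed genes come out too small, with adjusted p from limma.

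**Figure D1:**
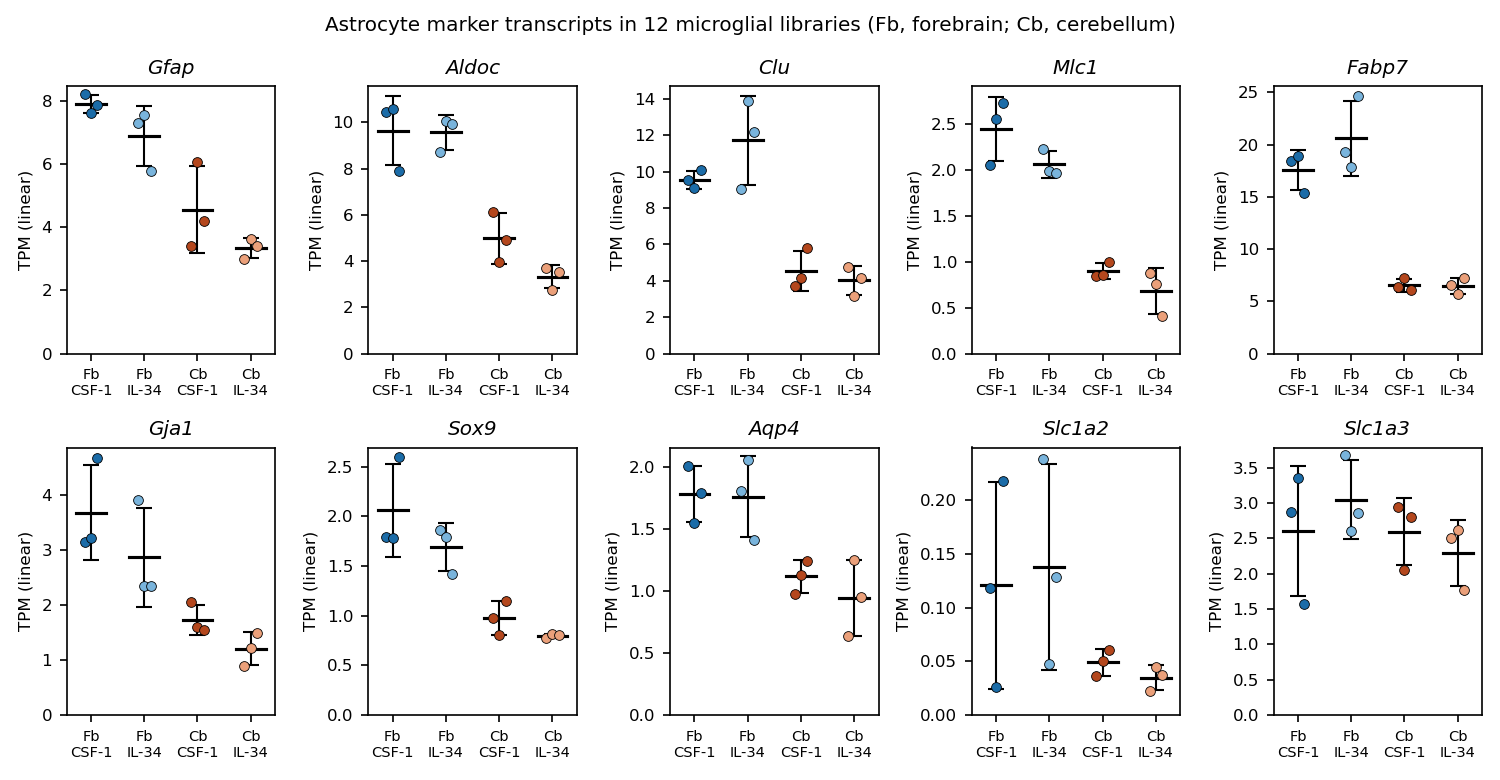
Level of each marker in TPM (linear axes starting at 0) in the 12 libraries, by region (Fb, forebrain; Cb, cerebellum) and ligand; points are libraries, the thick line is the group mean and the bars are 1 SD (n = 3). For Aldoc, Clu, Mlc1, Fabp7, Gja1, Sox9 and Aqp4 every cerebellar point lies below every forebrain point, while Gfap, Slc1a2 and Slc1a3 overlap.

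Among the cytoplasmic and secreted products, Fabp7 was the most abundant marker in TPM in every library, with 21.1 to 39.3% of the 10-gene sum. Its levels were 18.4, 18.9 and 15.4 TPM (CSF-1) and 19.3, 17.8 and 24.7 TPM (IL-34) in forebrain libraries, and 6.35, 7.23 and 6.06 TPM (CSF-1) and 6.56, 5.69 and 7.24 TPM (IL-34) in cerebellar libraries. All forebrain libraries stood well above all cerebellar ones, and the ligand groups overlapped within each region. The fitted difference was -1.41 (SE 0.0939, adjusted p = 3.36e-06). Fabp7-201, of 804 nt, held 69.0% of the summed TPM and spanned 9.87 to 17.3 TPM in forebrain libraries against 2.75 to 5.72 TPM in cerebellar ones. Fabp7-202, of 880 nt, held 31.0%, and its range in forebrain (3.45 to 7.35 TPM) overlapped that in cerebellum (0.695 to 3.6 TPM).

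Clu was measured at 9.53, 9.08 and 10.1 TPM (CSF-1) and 9.06, 13.9 and 12.2 TPM (IL-34) in forebrain libraries, and 3.7, 4.15 and 5.79 TPM (CSF-1) and 4.77, 3.19 and 4.15 TPM (IL-34) in cerebellar libraries. The forebrain libraries with IL-34 were the most variable, at 11.7 ± 2.45 TPM (n = 3), and the 2 highest values of all were among them. No cerebellar library reached the lowest forebrain one, and the difference was -1.14 (SE 0.126, adjusted p = 1.23e-04). The transcript Clu-201 held 81.9% of the sum. A second one, Clu-206, held 11.4% and accounted for 4.59 and 2.97 TPM of the 2 highest libraries. Its 632 nt lie close to the length floors of those libraries, 632 and 621 nt. Clu-201 alone ran from 6.87 to 9.29 TPM over the forebrain libraries.

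Aldoc, the brain form of aldolase, stood at 10.4, 10.6 and 7.91 TPM (CSF-1) and 8.7, 10.1 and 9.92 TPM (IL-34) in forebrain libraries, and 6.13, 3.94 and 4.9 TPM (CSF-1) and 3.7, 2.76 and 3.5 TPM (IL-34) in cerebellar libraries. The regions did not overlap, with a difference of -1.06 (SE 0.11, adjusted p = 8.15e-05). In the summed level, the cerebellar libraries with IL-34 were all below the cerebellar libraries with CSF-1. The main coding transcript, Aldoc-202, held 67.1% of the sum and overlapped between those groups. It ran from 2.72 to 3.69 TPM with CSF-1 and from 2.01 to 2.96 TPM with IL-34. Among noncoding forms, Aldoc-205 stood at 1.39 TPM in the third of these CSF-1 libraries and Aldoc-204 at 1.12 TPM in the first. Aldoa, the aldolase of most tissues, was at 2579 ± 157 TPM in forebrain against 2418 ± 201 in cerebellum and did not pass (-0.09, adjusted p = 0.179).

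Gfap was at 8.22, 7.64 and 7.86 TPM (CSF-1) and 7.3, 7.56 and 5.79 TPM (IL-34) in forebrain libraries, and 3.4, 6.09 and 4.18 TPM (CSF-1) and 3.01, 3.62 and 3.42 TPM (IL-34) in cerebellar libraries. The second cerebellar library with CSF-1, at 6.09 TPM, lay above the third forebrain library with IL-34, at 5.79 TPM, and the other cerebellar libraries lay below all forebrain ones. The difference was -0.78 (SE 0.115, adjusted p = 9.14e-04). Gfap-201 held 83.2% and Gfap-202 16.8% of the summed level. Of the other intermediate filaments, Vim, which microglia, astrocytes and mesenchymal cells all express, was at 877 ± 52.7 TPM in forebrain against 876 ± 102 in cerebellum and did not pass (-0.01, adjusted p = 0.96).

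The surface proteins were lower in level. Mlc1, whose protein sits at astrocyte junctions and takes part in volume regulation, had 2.05, 2.55 and 2.73 TPM (CSF-1) and 2.23, 1.99 and 1.96 TPM (IL-34) in forebrain libraries, and 0.848, 0.851 and 0.997 TPM (CSF-1) and 0.879, 0.757 and 0.406 TPM (IL-34) in cerebellar libraries. No cerebellar library reached 1 TPM and no forebrain library was below 1.96 TPM, with a difference of -0.87 (SE 0.106, adjusted p = 2.63e-04). Gja1, the gap junction protein connexin 43, had 3.15, 3.23 and 4.68 TPM (CSF-1) and 3.91, 2.35 and 2.35 TPM (IL-34) in forebrain libraries, and 2.05, 1.6 and 1.54 TPM (CSF-1) and 0.896, 1.23 and 1.5 TPM (IL-34) in cerebellar libraries. The third forebrain library with CSF-1 was the highest and the first cerebellar library with IL-34 the lowest, the regions did not overlap, and the difference was -0.78 (SE 0.137, adjusted p = 0.0028).

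Aqp4, the water channel of astrocyte endfeet, was measured at 2.01, 1.55 and 1.79 TPM (CSF-1) and 1.81, 2.06 and 1.41 TPM (IL-34) in forebrain libraries, and 0.98, 1.13 and 1.24 TPM (CSF-1) and 0.637, 1.25 and 0.955 TPM (IL-34) in cerebellar libraries. The regions were separated by a narrow gap, from 1.25 to 1.41 TPM, and the difference of -0.45 (SE 0.114, adjusted p = 0.018) was the smallest among those that passed. Sox9 had 1.8, 1.78 and 2.6 TPM (CSF-1) and 1.86, 1.79 and 1.42 TPM (IL-34) in forebrain libraries, and 0.973, 0.803 and 1.15 TPM (CSF-1) and 0.778, 0.812 and 0.804 TPM (IL-34) in cerebellar libraries. No forebrain library was below 1.42 TPM and no cerebellar library above 1.15 TPM, and the difference was -0.60 (SE 0.107, adjusted p = 0.00305). Mlc1-201, Gja1-201, Sox9-201 and Aqp4-201 each held nearly all of the level of its gene.

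Of the glutamate transporters, neither was called. Slc1a3 (GLAST) had 2.88, 3.36 and 1.58 TPM (CSF-1) and 3.68, 2.61 and 2.86 TPM (IL-34) in forebrain libraries, and 2.94, 2.05 and 2.8 TPM (CSF-1) and 2.51, 2.62 and 1.76 TPM (IL-34) in cerebellar libraries. The lowest library of all was a forebrain one and the highest also, the 4 groups overlapped, and the difference was -0.14 (SE 0.147, adjusted p = 0.555) with a 95% interval of -0.46 to 0.19. The main coding transcript, Slc1a3-201, held 64.4% of its summed level. It stood at 1.49 to 2.23 TPM in the forebrain libraries and 1.21 to 1.60 TPM in the cerebellar ones, where 5 of 6 forebrain libraries lay above every cerebellar library, a difference that was not tested. Most of the rest was in noncoding transcripts of the locus, the retained-intron forms Slc1a3-206 (12.7%) and Slc1a3-205 (12.2%) and the processed transcript Slc1a3-207 (8.29%). A second coding form, Slc1a3-208, held 2.14%. Slc1a2 (GLT-1), the main glutamate transporter of the adult forebrain, stayed between 0.0221 and 0.239 TPM and did not pass the filter. Fitted without the filter, its difference was -0.11 (SE 0.0479, adjusted p = 0.225). Its 2 highest values came from forebrain libraries, 1 per ligand, and the forebrain also held 1 of the lower values, at 0.0257 TPM.

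**Figure D2:**
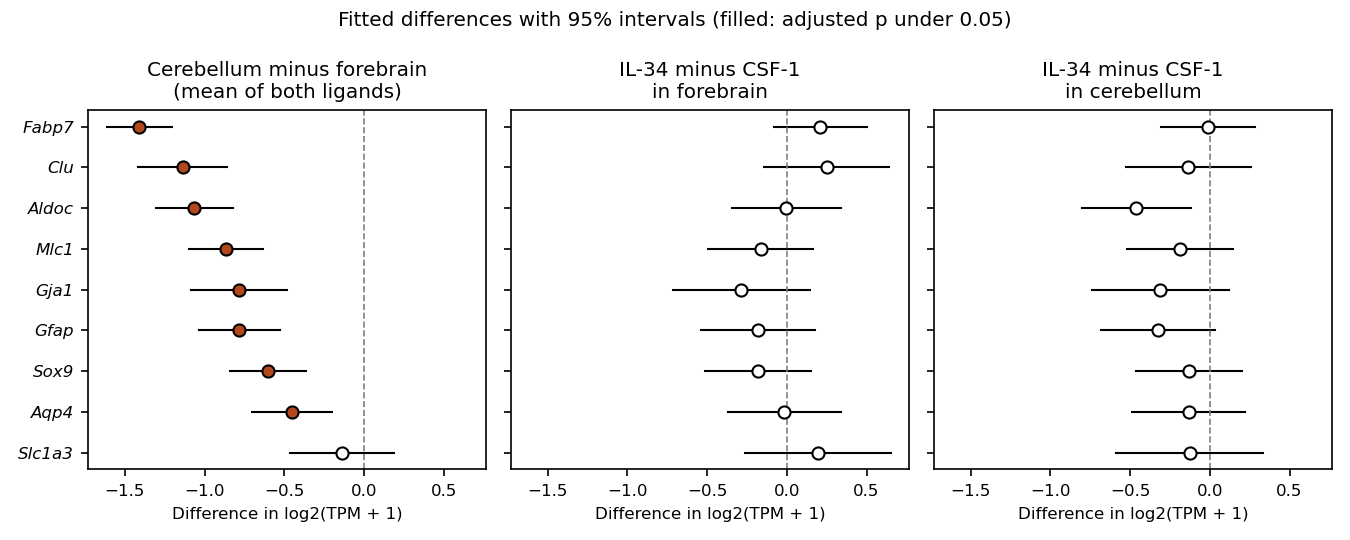
Fitted difference in log2(TPM + 1) with its 95% interval for the 9 markers tested: cerebellum minus forebrain as the mean of both ligands (left), and IL-34 minus CSF-1 in forebrain (middle) and in cerebellum (right); filled points passed an adjusted p of 0.05 in limma. The filled points run from Fabp7 at -1.41 to Aqp4 at -0.45, and no ligand difference is filled.

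With each ligand alone, 7 of the 9 markers were lower in cerebellum, namely Gfap, Aldoc, Clu, Mlc1, Fabp7, Gja1 and Sox9. Of all genes tested, 3.42% were lower with CSF-1 and 8.22% with IL-34. Aqp4 missed the threshold with CSF-1, at -0.39 (SE 0.161, adjusted p = 0.176), and with IL-34, at -0.51 (SE 0.161, adjusted p = 0.0597). Slc1a3 did so too, at 0.02 (SE 0.209, adjusted p = 0.965) with CSF-1 and -0.30 (SE 0.209, adjusted p = 0.372) with IL-34. The cerebellar group with unusual transcript lengths takes no part in the values of the CSF-1 comparison, but it shares in the estimate of spread. Without that group in the fit, 5 of the 9 were lower with CSF-1, beside 401 of all 12184 genes tested, and Sox9 (-0.63, adjusted p = 0.0598) and Gja1 (-0.77, adjusted p = 0.0545) were not called. With each library's length floor as a covariate, 5 of 9 were lower for the mean of both ligands and 1 (Fabp7) with IL-34. Over all 12419 genes, the number lower went from 1312 to 409 for the mean of both ligands and from 1021 to 72 with IL-34 under that covariate. The 6 markers that lost their call with IL-34 had differences from -1.50 for Clu (adjusted p = 0.0501) to -0.21 for Gja1 (adjusted p = 0.787), with Aldoc at -1.25, Mlc1 at -1.03, Gfap at -0.97 and Sox9 at -0.38. The markers that did not pass for the mean of both ligands under that covariate were Slc1a3, Sox9 (-0.49, adjusted p = 0.0841), Aqp4 (-0.46, adjusted p = 0.140) and Gja1 (-0.46, adjusted p = 0.0979).

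Between the ligands, no marker passed in either region, as the mean of both regions or for the region by ligand interaction. Across all genes tested, limma called 1.2% in forebrain, 12.8% in cerebellum, 13.4% for the mean of both regions and 0.145% for the interaction. These shares depend on the length floor. With it as covariate, 37 of all 12419 genes were called in cerebellum in place of 1593. For the mean of both regions 619 were called in place of 1667, and in forebrain 255 in place of 149. No marker passed under that covariate either. For the interaction 0 of 9 values had an unadjusted p under 0.05. Of the 27 ligand differences of the 9 markers, 2 had an unadjusted p under 0.05. They were Aldoc in cerebellum, at -0.46 (SE 0.156, adjusted p = 0.0731), and Gfap for the mean of both regions, at -0.25 (SE 0.115, adjusted p = 0.164). The 95% intervals of the ligand differences lay between -0.80 and 0.65, so differences up to that size lie within them. In the cerebellar libraries the 10-gene sum was 27.4 to 28.7 TPM with CSF-1 and 22 to 23.8 TPM with IL-34, without overlap. In the forebrain libraries the corresponding ranges were 54.8 to 58.7 and 58.1 to 62.7 TPM, and they overlapped. The length floor differed between the cerebellar ligand groups as described, and its part in the sum was not tested. Across libraries, with group means removed, Gja1 had r = 0.80 (rho = 0.51, n = 12) with that floor (exact permutation p = 0.0108 for r, 0.0972 after Benjamini-Hochberg adjustment over the 9 markers), and 0.81 without the 2 libraries farthest from the median floor.

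Whether the markers move together was asked in 2 ways. Between regions, the ratio of each pair of markers was compared on log2 TPM, permuting the region labels within each ligand over 400 arrangements, with a smallest possible exact p of 0.005. Of 36 pairs, 8 differed in ratio between regions at an adjusted p under 0.05. Slc1a3 was in 6 of them, against Aldoc, Clu, Mlc1, Fabp7 and Sox9 (exact permutation p = 0.005 and adjusted p = 0.030 each) and Gja1 (exact p = 0.01, adjusted p = 0.045). Mlc1 and Sox9 passed the filter through their forebrain level, so their ratios to Slc1a3 are not separate evidence of a regional difference. The log2 ratio of Fabp7 to Slc1a3, for example, was 2.79 ± 0.348 in forebrain libraries and 1.43 ± 0.405 in cerebellar ones (n = 6 per region). The other 2 pairs were Gfap against Fabp7 (exact p = 0.005, adjusted p = 0.030) and Fabp7 against Aqp4 (exact p = 0.01, adjusted p = 0.045), with the larger regional difference in Fabp7 each time. Against Gfap and Aqp4, the ratio of Slc1a3 missed the threshold (adjusted p = 0.090 and 0.156 in the exact test). In summed TPM, the markers were therefore not all lower in 1 common proportion. Each of the 8 pairs held Slc1a3 or Fabp7, so the pairs are not independent of each other. The ratio tests were added after seeing the data. Ratios with the main coding transcript of Slc1a3 alone, or with the length floor taken into account, were not tested.

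Within groups, each marker was expressed as its deviation from its group mean, and the 36 pairs were correlated over the 12 libraries. The median r was -0.11 (SE 0.148 by jackknife over libraries), and 14 of 36 pairs (38.9%) were positive. Over all pairs of the genes tested the median r was 0.06 and 55.3% were positive. The distance between these medians was not tested. Genes are not independent replicates, and these shares describe the libraries. The lowest value was r = -0.80 for Fabp7 and Sox9 (rho = -0.82, exact permutation p = 0.0100 for each, adjusted p = 0.361, r = -0.79 without the 2 farthest libraries). The highest was r = 0.60 for Gja1 and Sox9 (rho = 0.49, exact p = 0.156, adjusted p = 0.744, r = 0.26 without the 2 farthest libraries). The farthest libraries are those farthest from the median of the first gene named, so they can differ between pairs. Gfap and Aqp4 had r = 0.55 (rho = 0.69, exact p = 0.0332, adjusted p = 0.597, r = 0.82 without the 2 farthest libraries). No pair passed after adjustment over the 36, for r or for rho. In a single library, 3 to 7 of the 9 markers were above their group mean, so no library was high or low in all of them.

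**Figure D3:**
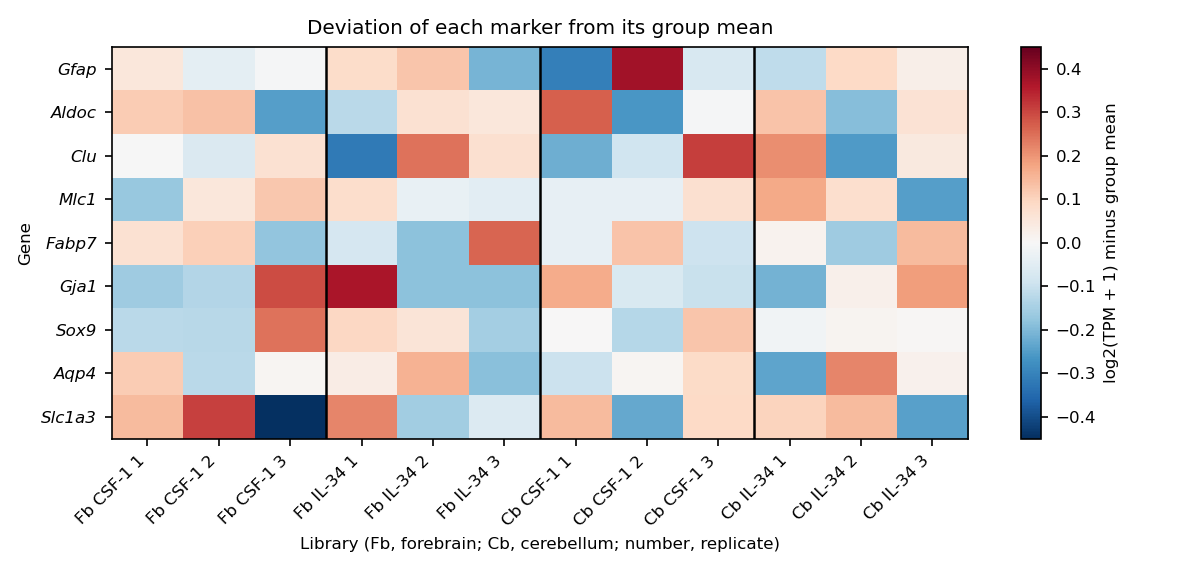
Deviation of each tested marker (rows) from its group mean in log2(TPM + 1) in the 12 libraries (columns, grouped by region and ligand with black dividers); red is above and blue below the group mean. No column is red or blue throughout, and each library has 3 to 7 of its 9 markers above the group mean.

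Other genes of the same cells and families were read from lists. Of 40 further astrocyte genes, 25 stayed below 1 TPM in all 12 libraries, among them S100b, Gjb6, Hepacam and Ndrg2, and 12 were tested. For the mean of both ligands 5 of these were lower in cerebellum, 0 were higher and 7 did not pass, with a median difference of -0.30. F3 (tissue factor) was at 9.49 ± 0.907 TPM in forebrain against 2.9 ± 0.965 in cerebellum (-1.46, adjusted p = 6.52e-05), and the endothelin receptor Ednrb at 10.02 ± 1.86 TPM in forebrain against 6.27 ± 0.971 in cerebellum (-0.59, adjusted p = 6.38e-04). Sparcl1 (-0.65, adjusted p = 0.00677) and the folate enzyme Aldh1l1 (-0.56, adjusted p = 0.0123) were lower as well, and so was Id4, an inhibitor of basic helix-loop-helix factors. Glul, the glutamine synthetase that microglia also express, was at 52.2 ± 9.25 TPM in forebrain against 50.8 ± 14.8 in cerebellum and did not pass (-0.07, adjusted p = 0.681). That mean joins values of opposite sign, -0.52 with CSF-1 (SE 0.151, adjusted p = 0.0632) and 0.38 with IL-34 (SE 0.151, adjusted p = 0.12). In cerebellum Glul was higher with IL-34 than with CSF-1 in limma (0.73, SE 0.151, adjusted p = 0.0149). That comparison uses the group with unusual transcript lengths.

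In the list of radial and Bergmann glia genes, 9 of 16 were tested, 3 were lower and 1 was higher. The lower ones were Ddah1 (-1.13, adjusted p = 3.68e-04), Pdpn and Nes, the intermediate filament of neural progenitors (-0.44, adjusted p = 0.0154), and the higher one was the receptor Notch1 (0.39, adjusted p = 0.00988). Beside Mlc1, Gja1 and Aqp4, 7 more membrane proteins associated with MLC1 were tested and 2 were lower, Cav1 at 44.2 ± 11.3 TPM in forebrain against 12 ± 1.73 in cerebellum (-1.77, adjusted p = 3.22e-07) and the cation channel Trpv4 (-0.32, adjusted p = 0.0312). Of 10 connexins and pannexins, 8 were below 1 TPM in all libraries and Panx1, a large-pore channel, was higher in cerebellum (0.22, adjusted p = 0.0438). Among SOX and NFI factors other than Sox9, 6 were tested and Nfia alone was called for the mean of both ligands, higher at 2.83 ± 0.859 TPM in forebrain against 4.64 ± 0.612 in cerebellum (0.58, adjusted p = 0.00812). With IL-34 alone, a comparison that uses the cerebellar group with unusual transcript lengths, Nfib was lower, at -0.55 (SE 0.147, adjusted p = 0.032). Of the fatty acid binding proteins other than Fabp7, 3 were tested (Fabp3, Fabp4 and Fabp5) and none passed between regions in limma, with Fabp5 at 579 ± 159.6 TPM in forebrain against 556 ± 168 in cerebellum and 0 of the 3 at an unadjusted p under 0.05. All 3 were higher with IL-34 than with CSF-1 in cerebellum, where Fabp5 differed by 0.79 (SE 0.123, adjusted p = 0.00523). In forebrain 1 of the 3 passed, Fabp5 at 0.67 (SE 0.123, adjusted p = 0.0287). The cerebellar values rest on the group with unusual transcript lengths. Values of these 3 genes with the length floor as covariate are not given here. Over all 12419 genes, that covariate took the calls in cerebellum from 1593 to 37.

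In the glutamate list the called genes were higher in cerebellum. Of 13 genes tested for glutamate uptake and the glutamine cycle, 4 were higher and 0 lower, beside 9.58% higher among all genes tested. Slc7a11, the cystine and glutamate exchanger, was at 14.2 ± 1.02 TPM in forebrain against 35.7 ± 1.77 in cerebellum (1.27, adjusted p = 3.73e-08), and its partner chain Slc3a2 was also higher (0.22, adjusted p = 0.00845). The neutral amino acid transporters Slc1a5 (0.55, adjusted p = 8.74e-05) and Slc1a4 (0.30, adjusted p = 0.0281) belong to the same gene family as Slc1a2 and Slc1a3. In the list of reactive astrocyte genes, many of which microglia express too, 21 of 30 were tested, with 9 lower and 3 higher. The lower ones included Lcn2, a siderophore-binding protein, at 24.4 ± 2.71 TPM in forebrain against 8.69 ± 1.29 in cerebellum (-1.39, adjusted p = 3.65e-07), the pentraxin Ptx3 (-1.44, adjusted p = 5.06e-05), Cd109 (-0.93, adjusted p = 5.22e-05) and Tm4sf1 (-0.99, adjusted p = 0.0018).

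Markers of other cells in such cultures also differed by region, and their part in the marker differences was not tested. Of 15 mesenchymal genes, 5 were tested and 3 were lower, the contractile genes Acta2 at 7.07 ± 1.62 TPM in forebrain against 2.11 ± 0.477 in cerebellum (-1.37, adjusted p = 7.97e-05), Tagln (-1.0, adjusted p = 7.17e-04) and Cnn1 (-0.93, adjusted p = 5.17e-04). That list summed to 14 to 22.6 TPM in forebrain and 5.9 to 9.29 TPM in cerebellum, and its collagens Col1a2 and Col3a1 stayed below 1 TPM. Choroid plexus and ependymal genes went the other way, with sums of 2.65 to 5.04 TPM in forebrain and 16.5 to 61.6 TPM in cerebellum. There, 3 of 5 tested were higher and 1 was lower, with Ttr, which carries thyroid hormone, at 0.178 ± 0.227 TPM in forebrain against 20.5 ± 10.2 in cerebellum (4.08, adjusted p = 5.01e-06), and Tmem212 was at 0 in all libraries. Ttr entered the test through its cerebellar level, so its call is not separate evidence of a regional difference.

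The 18 neuronal genes summed to 5.42 to 8.29 and 4.36 to 6.17 TPM, with 15 of them below 1 TPM throughout, Neurod1 at 0 and 0 of 3 tested called in limma for the mean of both ligands (1 had an unadjusted p under 0.05). With IL-34 alone Map2, a cytoskeletal protein of dendrites, was lower in cerebellum, at -1.01 (SE 0.291, adjusted p = 0.0418). That comparison uses the group with unusual transcript lengths, and the value of Map2 with the length floor as covariate is not given here. Endothelial genes summed to 7.47 to 12.9 and 11.5 to 15.2 TPM, with Cldn5 and Ly6c1 at 0 in all libraries. Of 3 endothelial genes tested, the VEGF receptor Flt1 was higher in cerebellum (0.56, adjusted p = 0.00846). Oligodendrocyte lineage genes summed to 126 to 153 and 140.1 to 176 TPM, with 7 tested. The myelin genes Mobp (1.06, adjusted p = 2.38e-04) and Mbp (0.69, adjusted p = 1.04e-05) were higher and the lineage factor Olig1 (-0.87, adjusted p = 2.63e-04) was lower in cerebellum. Microglial genes were called in 2 of 19 cases, Tmem119 higher at 8.87 ± 0.994 TPM in forebrain against 18.8 ± 1.04 in cerebellum (1.01, adjusted p = 1.09e-05) and the purinergic receptor P2ry12 lower (-0.34, adjusted p = 0.0205).

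**Figure D4:**
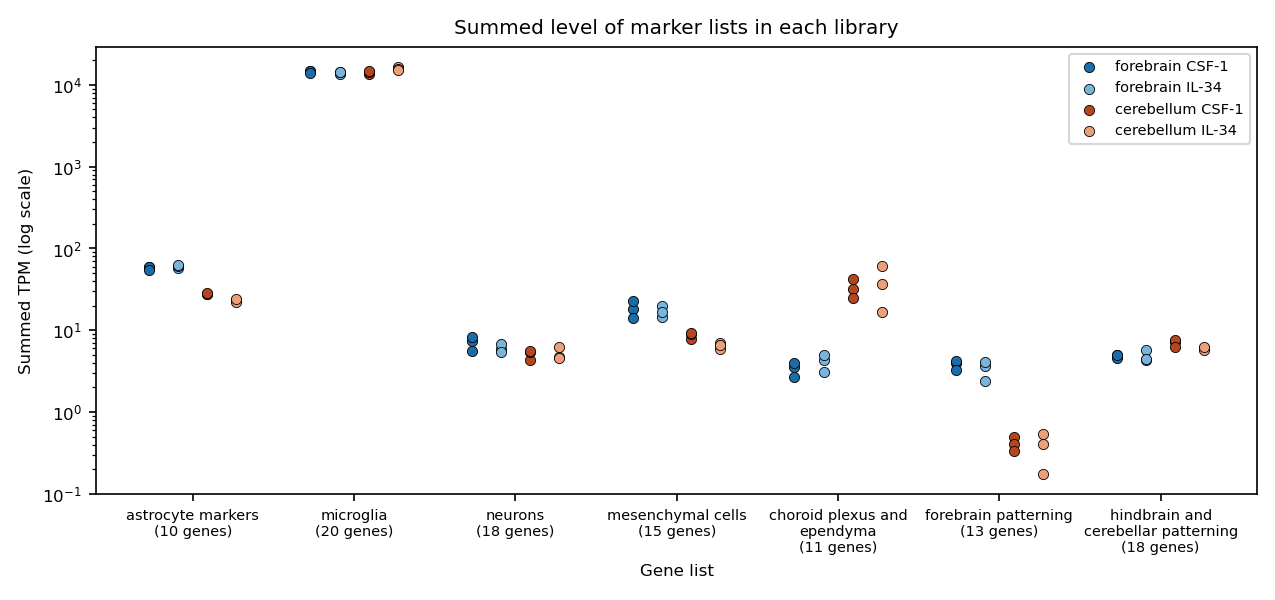
Summed TPM (log axis) of the 10 astrocyte markers and of 6 other gene lists in each of the 12 libraries, coloured by region and ligand. The astrocyte, mesenchymal and forebrain patterning sums are lower in every cerebellar than in every forebrain library, the choroid plexus and ependymal sum is higher, and the microglial sum overlaps.

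Genes that pattern the brain regions during development were present at low levels. The 13 forebrain patterning genes summed to 2.41 to 4.15 TPM in forebrain and 0.175 to 0.545 TPM in cerebellum, and 0 of them reached the level for testing. Lhx2, a factor of the developing forebrain, had 0.847 ± 0.588 TPM in forebrain and at most 0.0374 TPM in any cerebellar library. The 18 hindbrain and cerebellar patterning genes summed to 4.34 to 5.77 and 5.67 to 7.53 TPM, most of it Meis1, the 1 gene of the 18 that was tested, which did not pass (0.23, adjusted p = 0.108).

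The genes whose level followed the markers most closely were found by Pearson's r between log2(TPM + 1) and the mean standardised level of the 9 tested markers over the 12 libraries. The markers themselves and symbols of predicted genes, clones or pseudogenes were left out. This is a description with no test, and all 12 points share the regional difference. The 10 highest, with r from 0.97 to 0.98, were Ndufa9, Atp8b4, F13a1, Folr2, Lcn2, Cpt1c, Itgal, Cd300lf, Aifm2 and Lsp1. F13a1, a coagulation factor chain made by macrophages, was at 27.5 ± 1.93 TPM in forebrain and 5.74 ± 0.758 TPM in cerebellum (n = 6 per region), and the folate receptor Folr2, known from border-associated macrophages, at 82.3 ± 9.88 and 23.7 ± 2.35 TPM. Itgal, an integrin of leukocytes, was at 39.2 ± 0.915 and 14.7 ± 1.37 TPM. The smallest ratio between regions among the 10 was that of Ndufa9, a subunit of respiratory complex I, at 177 ± 5.14 and 146 ± 4.70 TPM.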

How the data were processed

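RNA of 12 libraries was measured as TPM per Ensembl transcript by the authors, and the deposited table was used as it stands. The submitters' processing notes name kallisto 0.43.0 and the build GRCm38. The annotation release, filters and the way cultured cells were harvested were not stated in the sources used. SMART-Seq v4 cDNA synthesis was used per the labels' protocols, a chemistry that does not mark strand, and the same text describes Percoll and CD11b bead isolation from human tissue although the organism given is mouse. TPM scales each library to the same sum, so depth is unknown and no counting interval is given. Precision rests on the spread between libraries.

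TPM was summed per gene. The 12419 of 46262 genes that reached 1 TPM in 3 or more libraries were fitted as log2(TPM + 1) with limma 3.58.1 in R 4.3.3, with 4 group means, a variance trend and 8 residual degrees of freedom. Tests were two-sided, with Benjamini-Hochberg adjustment over all genes tested and a threshold of 0.05. The fit was tested on simulated data. The 10 markers and the gene lists were chosen with earlier results of these data known. All 10 markers are named, with up to 4 genes of each list by smallest p, the abundant and undetected genes of other cell types, and the 10 closest followers of the markers. Symbols of predicted genes, clones or pseudogenes were left out of the followers. A few genes within this rule are left unreported. Transcript lengths come from GENCODE M21, in which 98.7% of transcripts were found. Pair ratios and correlations used exact permutation tests, over all orders within groups for correlations. Alternatives covered pseudocount, filter, scaling, variance model, libraries, replicate block and transcript length. The length floor as a covariate, the fit without the cerebellar IL-34 group and the ratio tests were added after seeing the data. The main fit has no replicate block, since in none of the group pairs compared were all 3 same-numbered correlations above 0.1.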

Additional observations from a re-analysis of the deposited data

How the results depend on the processing

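For the mean of both ligands, 8 markers were lower in cerebellum under every alternative except the length floor as covariate, where 5 were, and the restriction to transcripts of at least 1000 nt, where 7 of 8 tested were and Fabp7 dropped out. Leaving out each library in turn gave 8 throughout, beside 993 to 1406 lower over all genes. With IL-34 the count of 7 became 1 with the length floor as covariate, where 72 of all 12419 genes were lower in place of 1021. It became 5 when only the libraries of the contrast were fitted, beside 739 of all 11848 genes. It was 5 to 7 when each library was left out in turn, beside 520 to 1083 lower over all genes. With CSF-1 the count of 7 became 4 when only the libraries of the contrast were fitted, beside 266 of all 11868 genes. The count was 4 to 7 when each library was left out, beside 240 to 433 lower over all genes. It was 4 without forebrain CSF-1 replicate 1, 2 or 3 and without cerebellum CSF-1 replicate 1. Fewer libraries in the fit leave fewer degrees of freedom, and the cause of the other changes was not tested.

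No marker passed between ligands or for the interaction under any alternative. Single markers lost their call in 28 combinations of marker and alternative with CSF-1, 18 with IL-34 and 3 for the mean of both ligands, 2 were gained with IL-34, and no called difference changed sign. The median within-group correlation stayed below 0, from -0.22 to -0.03 when each library was left out.

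The replicate block changed the counts to 5 with CSF-1, 6 with IL-34 and 8 for the mean of both ligands. Over all 12419 genes, 335, 889 and 1166 were lower under it. It gave 0 between ligands, where 83 of all genes were called in forebrain and 986 in cerebellum. Deviations of same-numbered libraries had r from -0.45 to 0.46. The 3 numbers gave 0.46, 0.17 and 0.26 between forebrain IL-34 and cerebellum CSF-1, which are not compared, but -0.40, 0.13 and -0.42 between the forebrain groups, -0.22, 0.24 and -0.45 between the CSF-1 groups, and at most 0.000857 between the IL-34 and between the cerebellar groups, so the numbers were not taken to pair the libraries. In cerebellum Mlc1, Sox9 and Aqp4 lay near 1 TPM and Slc1a2 far below it, and with depth unknown the counting error of these levels cannot be given. The list of other astrocyte genes had 2 lower with the length floor as covariate in place of 5, and the reactive astrocyte list 5 in place of 9. Over all 12419 genes the number was 409 in place of 1312.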
